A study of Mus musculus with 2 samples.

Results

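The mammalian circadian clock is a feedback loop of transcription that runs in most cells of the body, lung epithelium included. Arntl (also called Bmal1) pairs with Clock, or with its relative Npas2, and the pair binds E-box sequences to switch on the Per and Cry genes, whose proteins return to the nucleus and block the pair. The same pair drives output factors, among them Dbp and Tef, which bind D-box sequences and pass the rhythm on to other genes. In lung the clock is best known for rhythmic control of inflammatory and glucocorticoid responses of airway epithelium.

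The 10 genes followed here belong to this loop, and are the activators Arntl, Clock and Npas2, the repressors Per1, Per2, Per3, Cry1 and Cry2, and the output factors Dbp and Tef. They were chosen by name, as all probe sets whose only annotated gene symbol was one of the 10, which gave 25 probe sets of 34945 that name 1 gene, and 10 of 18193 genes. The arrays compared Mle29c cells with Mlesico cells, both described in the labels as epithelial cell lines of mouse and both grown in DMEM with 10% FBS, with 1 array per line. The series is about miR-29c and pulmonary fibrosis. The labels used here do not say how the lines were made, whether miR-29c was raised or lowered in Mle29c, or whether either is 1 clone. No treatment, synchronisation or harvest time is given, so a change in the level of a clock transcript and a change in the phase of the clock cannot be told apart. Each array measured bulk RNA, in which fewer cells with a transcript and less of it per cell also look the same.

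Each value below is a log2 ratio, Mle29c minus Mlesico, of the deposited signals, with their log base, which is not stated, taken as 2. The authors had centred both values of a probe set on their midpoint, so the value of Mle29c is the mirror image of that of Mlesico and the absolute level is gone. Only a class of level could be recovered, from the rounding of the numbers: high for a mean signal of about 256 or more, middle for about 16 to 256, and low below that. Where the sum of both values shows a rounding remainder the class follows from it. Where it does not, the rounding step alone sets the class, and the step bounds the level from above only. The class matters because 2-fold differences made up 57.9% of all low-class probe sets. They made up 20.4% of middle-class probe sets placed by the sum and 27.1% of those placed by the step, and 5.4% of high-class ones placed by the sum and 13.6% of those placed by the step. Of the 25 clock probe sets, 13 were placed by the sum and 12 by the step. Because each line has 1 array, no replicate error exists and no test was run. The SD between different probe sets of a gene, pooled over 6914 genes, was 0.62 in log2 ratio, and it is the only error that these arrays give. The label epithelial was checked against markers: all 7 epithelial genes (Cdh1, Epcam, Krt8, Krt18, Krt19, Cldn7 and Esrp1) had a probe set above the low class, Krt8 in the high class from the sum. Their ratios had a median of -0.09 and ran from -4.51 for Esrp1 to 1.46 for Cdh1. All 6 alveolar type 2 markers and all 5 fibroblast markers were also above the low class. Sftpb of the type 2 markers and Dcn of the fibroblast markers were likewise in the high class from the sum. A high-class probe set was present for 2 of 7 epithelial, 4 of 6 type 2 and 3 of 5 fibroblast genes. It was also present for 1 of 3 endothelial genes (Cdh5) and 0 of 3 leukocyte genes. The level class thus did not set the epithelial markers apart from the type 2 or fibroblast ones. Ratios were 0.02 to 2.25, with a median of 1.14, for the type 2 markers. They were -3.41 (Col1a1) to 0.13, with a median of 0.05, for the fibroblast markers. Of 3 leukocyte genes, Ptprc was in the low class, while Cd68 (-0.99) and Laptm5 (1.02) had middle-class probe sets. Of 3 endothelial genes, Pecam1 was in the low class, while Cdh5 (0.05) and Kdr (0.01) were above it. The part of these other genes in the clock ratios was not tested.

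Dbp and Cry1 were more than 2-fold higher in Mle29c, and no clock gene was 2-fold lower. Per2 and Tef lay close below the threshold, Cry2 was at 0.41, and the activators Arntl and Clock, with Per1 and Per3, stood at or below 0.02. Npas2, with low-class probe sets only, was not measured. The count of 2 of the 9 measured clock genes higher stands beside 8.4% of all 14842 measured genes, and the count of 0 of 9 lower beside 7.18%. At 1.5-fold 4 of 9 were higher and 0 lower, against 16.6% and 15.1% of all measured genes; at 4-fold none was past the threshold, against 2.66% higher and 2.3% lower. A gene was called measured when a probe set of it was in the high or middle class or had values too close to 0 to be classed, and its ratio is the median of those probe sets. The median of the 9 measured clock genes was 0.41, with 6 above 0 and 3 below, against a median of 0.00 over all measured genes. With Npas2 taken at the median of its low-class probe sets the median of the 10 was 0.31. By role, the median was 1.26 for both output factors and 0.41 for the 5 repressors, and the measured activators Arntl and Clock stood at -0.50 and 0.02.

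**Figure D1:**
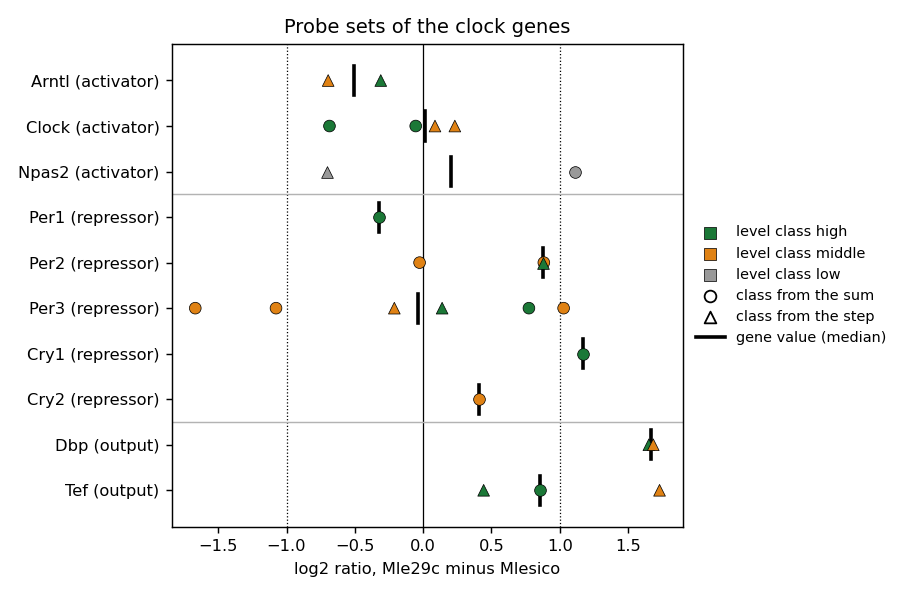
Each point is a probe set of a clock gene, with its log2 ratio (Mle29c minus Mlesico) on the x axis and the gene and its role on the y axis; colour gives the level class, shape the basis of that class, and the black bar the gene value. Both Dbp probe sets lie beyond the dotted line at 1 (2-fold), whereas the 6 of Per3 run from -1.67 to 1.03.

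The promoters of 5 members are shown first, since the loop works through short motifs there and these members cover the 3 roles. They are RefSeq windows of build GRCm38.p6, from 250 bases before to 50 after an annotated start, printed 5′ to 3′ on the strand of the gene. Capitals mark motifs found by a search of both strands: the E-box CACGTG, bound by the activator pair, its variant CACGTT, the D-box TTATGNAA, bound by Dbp and Tef, and the long form of the ROR element, with the core AGGTCA, bound by the Ror and Rev-erb receptors. Cry1 at chr10:85185005-85185304 (minus strand) is shown as the repressor with the highest ratio, Tef at chr15:81802423-81802722 (plus strand) and Dbp at chr7:45704997-45705296 (plus strand) as the output factors, Per1 at chr11:69098699-69098998 (plus strand) as the repressor with the lowest, and Arntl at chr7:113207261-113207560 (plus strand) as the activator with the lowest.
Cry1: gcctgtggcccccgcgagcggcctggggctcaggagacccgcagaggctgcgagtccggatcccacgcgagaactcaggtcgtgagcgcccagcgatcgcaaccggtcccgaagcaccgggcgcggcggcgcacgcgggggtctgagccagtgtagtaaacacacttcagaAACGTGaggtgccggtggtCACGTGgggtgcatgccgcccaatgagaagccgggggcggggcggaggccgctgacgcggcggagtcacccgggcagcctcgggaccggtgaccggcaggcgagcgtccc
Tef: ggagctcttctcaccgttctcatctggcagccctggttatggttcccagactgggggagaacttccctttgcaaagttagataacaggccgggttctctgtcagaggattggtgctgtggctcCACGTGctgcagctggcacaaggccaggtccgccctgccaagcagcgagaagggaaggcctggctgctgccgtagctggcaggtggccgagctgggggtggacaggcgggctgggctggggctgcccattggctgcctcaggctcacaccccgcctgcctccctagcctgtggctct
Dbp: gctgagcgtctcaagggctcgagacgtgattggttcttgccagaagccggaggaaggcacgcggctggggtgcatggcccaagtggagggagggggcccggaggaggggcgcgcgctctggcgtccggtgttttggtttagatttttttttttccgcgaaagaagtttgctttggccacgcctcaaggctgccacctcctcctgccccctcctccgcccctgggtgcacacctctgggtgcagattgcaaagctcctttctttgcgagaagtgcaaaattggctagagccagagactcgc
Per1: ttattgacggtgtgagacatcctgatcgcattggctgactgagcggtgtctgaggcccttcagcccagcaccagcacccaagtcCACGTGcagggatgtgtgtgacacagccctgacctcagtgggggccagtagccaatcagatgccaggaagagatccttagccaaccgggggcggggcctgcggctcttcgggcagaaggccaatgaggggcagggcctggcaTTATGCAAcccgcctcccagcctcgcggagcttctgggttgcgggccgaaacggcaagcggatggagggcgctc
Arntl: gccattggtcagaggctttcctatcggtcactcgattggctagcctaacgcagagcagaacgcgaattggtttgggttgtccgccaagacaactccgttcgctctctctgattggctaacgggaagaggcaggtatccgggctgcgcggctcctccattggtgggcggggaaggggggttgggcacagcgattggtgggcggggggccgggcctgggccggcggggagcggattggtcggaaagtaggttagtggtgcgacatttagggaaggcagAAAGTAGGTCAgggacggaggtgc

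Windows were matched for 9 of the 10 members, 14 windows in all; Per2 was not matched. The E-box was present in 4 of these 14 windows, against 7.15% of all 32851 windows. The 4 belong to 3 members: Per1 (166 bases before the start, only in the window shown), Cry1 (60 before) and Tef (127 and 138 before, in its 2 windows). The variant CACGTT was in 2 of the 14, Cry1 (79 before) and Cry2 (166 before), against 4.68% of all windows. The D-box was in 2 of the 14, against 3.38% of all windows. They were the shown window of Per1 (24 before) and that of Per3, which holds it at 205 and at 158 bases before its start. The long form of the ROR element was searched as a fixed string without a variable base, so near matches were not counted. That string was in 1 of the 14, where it began at base 27 after the start of Arntl, and in 7 windows of all (0.0213%). The share gives the rarity of that exact string, not of ROR sites in general. The match therefore does not show that Arntl alone of the members has such a site, or has only 1. A shorter form with the same core, found among the members only within that match of Arntl, was in 0.219% of windows. The E-box thus occurs both in Cry1 and Tef, with ratios above 0, and in Per1, with a ratio below 0. The window of Dbp held none of the motifs, which says only that these letters are not in those 300 bases.

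Neither measured activator, Arntl or Clock, was 2-fold higher or lower, and Npas2 was not measured. Arntl, the partner common to every activator pair, had deposited values of -0.16 and -0.35 in Mle29c, against 0.16 and 0.35 in Mlesico, for its 2 probe sets. Both therefore lay lower in Mle29c, at log2 ratios of -0.31 (high class from the step) and -0.70 (middle class from the step). As the step bounds the level from above only, the true class of either may be lower. The median of both ratios, -0.50, is 1.42-fold higher in Mlesico. This is the lowest of the 10 genes, and 17.8% of measured genes had a ratio as low or lower. Clock, which encodes the histone acetyltransferase that pairs with Arntl, had 4 probe sets, at -0.69, -0.05, 0.09 and 0.23. The 2 that target the same sequence record, both in the high class from the sum, were the -0.69 and the -0.05. The gene value of Clock was 0.02, with 2 probe sets on either side of 0.

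Npas2, the relative of Clock that can replace it in forebrain and other tissues, was the only member without a probe set above the low class. Its 2 probe sets target the same sequence record and gave 1.11 and -0.70. They point in opposite directions, so the median of 0.21 gives no direction for Npas2. A ratio of 1 or more was found in 30.1% of low-class probe sets, so a value of 1.11 is common there.

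Of the repressors, Cry1 and Cry2 encode the cryptochromes, the proteins that bind the activator pair and block it. Cry1 had a deposited value of 0.59 in Mle29c, against -0.59 in Mlesico, in its single probe set. The ratio was 1.17, or 2.25-fold, in the high class from the sum, where 2.92% of probe sets were at least 2-fold higher. Over all measured genes 6.55% had a ratio as high or higher. That probe set is of a type shared by several transcripts of the gene (its name ends in _a_at), and Cry1 has no other here. Cry2 was 0.21 in Mle29c, against -0.21 in Mlesico, also in 1 probe set, with a ratio of 0.41 in the middle class. The difference between the 2 cryptochrome ratios, 1.17 and 0.41, has no error of its own, as each rests on 1 probe set.

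The Per genes encode the period proteins, which carry the cryptochromes into the repressing complex, and the 3 of them did not share a direction. Per1, which is an immediate early gene induced by glucocorticoids and by serum in many cells, had a value of -0.16 in Mle29c, against 0.16 in Mlesico. Its ratio of -0.32 comes from 1 probe set in the high class from the sum, and 26.2% of measured genes had a ratio as low or lower. Per2, whose protein stabilises the complex, had 3 probe sets with values of 0.44, 0.44 and -0.01 in Mle29c, against -0.44, -0.44 and 0.01 in Mlesico. Of these, 2 lay higher in Mle29c, at 0.88 each, and the third was level at -0.03. The 0.88 from the sum-placed middle class and the -0.03 target the same sequence record. The gene value of Per2 was 0.88, or 1.83-fold, and 10.1% of measured genes were as high or higher.

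Per3, the period gene that the loop can run without in mouse, had 6 probe sets at -1.67, -1.08, -0.21, 0.14, 0.77 and 1.03. Of these, 3 lay above 0 and 3 below, and 1 was past 2-fold upwards and 2 downwards. The widest gap, of 2.70 between the ends, was matched or exceeded in 9.03% of the 155 genes with 6 measured probe sets. The 3 probe sets that target the reference transcript stood at -1.67, 0.14 and 0.77, so the spread is present within 1 transcript as well. The median of -0.04 gives no direction for Per3.

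The output factors Dbp and Tef were both higher in Mle29c in every probe set. Dbp, a leucine zipper factor of the PAR family and one of the most strongly rhythmic transcripts of liver and other tissues, had values of 0.84 and 0.83 in Mle29c, against -0.84 and -0.83 in Mlesico. The ratios of 1.68 (middle class from the step) and 1.65 (high class from the step) differ by 0.03, and 5.9% of the 3746 genes with 2 measured probe sets had a pair as close. In these classes 13.8% and 7.26% of probe sets, in that order, were at least 2-fold higher. The probe set at 1.65 is of the shared type (_s_at). As the step bounds the level from above only, the true class of either probe set may be lower. The gene value of 1.67 is 3.18-fold, the highest of the 10, and 3.66% of measured genes were as high or higher. Tef, of the same factor family and named for its role at a thyrotroph promoter, had values of 0.22, 0.43 and 0.86 in Mle29c, against -0.22, -0.43 and -0.86 in Mlesico. Its ratios were 0.44, 0.85 and 1.73, all above 0, and the highest came from a probe set of the shared type (_s_at). The gene value of Tef was 0.85, or 1.81-fold. Over all 25 probe sets of the members, 6 (24%) were at least 2-fold higher and 2 (8%) at least 2-fold lower, against 12.7% and 11.7% of all probe sets with 1 gene.

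**Figure D2:**
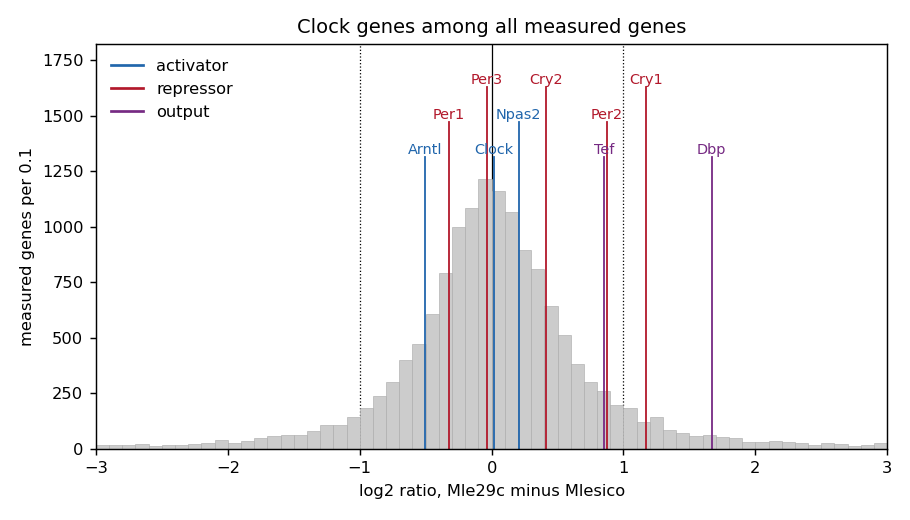
Grey bars count the 14842 measured genes by log2 ratio (Mle29c minus Mlesico, in steps of 0.1; 303 genes lie beyond 3 in either direction and are not drawn), and coloured lines give the 10 clock genes by role, Npas2 from its low-class probe sets. Dbp at 1.67 and Cry1 at 1.17 stand beyond the dotted line at 1, Per2 and Tef just inside it, and Arntl at -0.50 is the lowest.

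Ratios on these arrays also differ by chromosome, so each clock gene was set against its own chromosome and against the 10 nearest measured genes, 5 on each side in the order of the GRCm38.p6 gene table. Cry1 and Per2 kept their ratios against both. Cry1 on chromosome 10 was 1.15 above the chromosome median and 1.22 above its neighbours, none of which was past 2-fold in either direction. Per2 on chromosome 1 was 0.91 above the chromosome median and 0.95 above its neighbours, again with none past 2-fold. Dbp was 1.65 above the median of chromosome 7 but 1.11 above its neighbours, whose median was 0.56. Of those neighbours, 4 were at least 2-fold higher, namely the fucosyltransferase genes Fut2 (1.21) and Sec1 (1.01), the netrin gene Ntn5 (1.33) and Car11 (1.15), a carbonic anhydrase relative, while Mamstr (-1.09) and Sult2b1 (-1.56) were at least 2-fold lower. Tef lies on chromosome 15, where the median over genes was 0.36, and its neighbours had a median of 0.50, which left Tef 0.50 above the chromosome and 0.35 above its neighbours. Per1 lies on chromosome 11, where the median was -0.25, and it stood at -0.08 after that median was subtracted. Against its neighbours, whose median was -0.11, Per1 stood at -0.21. Arntl stood at -0.52 against its chromosome and at -0.29 against its neighbours, whose median was -0.22. Per3 stood at 0.02 against its chromosome and at 0.39 against its neighbours, whose median was -0.42. The part of neighbouring or chromosome-wide differences in the ratios of the clock genes was not tested.

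**Figure D3:**
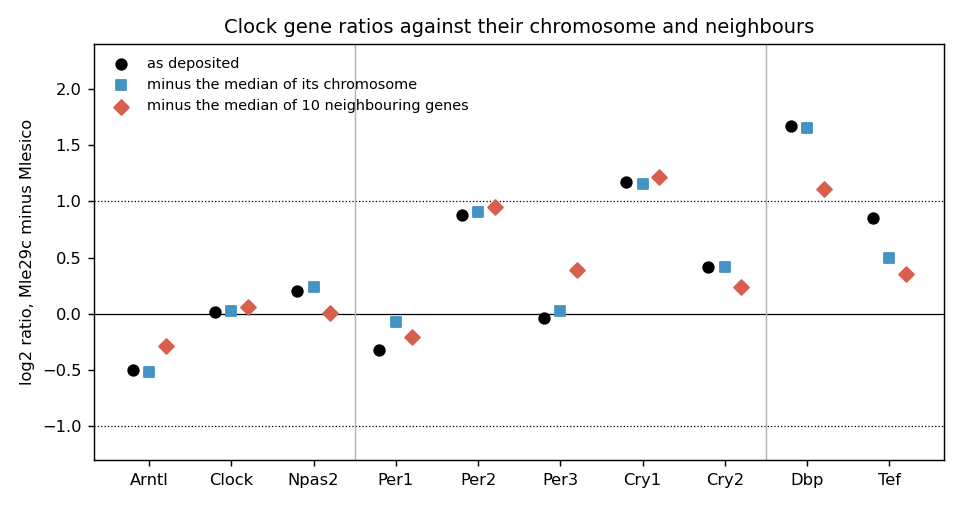
For each clock gene the black circle is the log2 ratio as deposited (Mle29c minus Mlesico), the blue square the same minus the median of its chromosome, and the red diamond the same minus the median of its 10 neighbouring genes. Cry1 and Per2 hardly move, Dbp goes to 1.11 against its neighbours, and Tef goes to 0.35.

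Around the core loop, genes of the second loop and of related factors were listed by role: the Rev-erb receptors Nr1d1 and Nr1d2, which repress Arntl, the Ror receptors, which activate it, the E-box repressors Bhlhe40, Bhlhe41 and Ciart, the D-box factors Nfil3 and Hlf, and Arntl2, a paralog of Arntl. Of these, 10 genes were measured. In this list 2 genes were higher by 2-fold or more and none lower, against 8.4% and 7.18% of all measured genes. The median was 0.56, with 7 of 10 above 0, against 7480 of all 14842 measured genes above 0. The 2 were Bhlhe41 at 1.26 (middle class) and Bhlhe40 at 1.24 (high class), each from 1 measured probe set and both on chromosome 6, where the median was 0.32. With that median subtracted they stood at 0.94 and 0.92, below 2-fold. A second, low-class probe set of Bhlhe41 was at 0.25.

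The receptors of the second loop divided by gene. Nr1d1, with a value of 0.50 in Mle29c, against -0.50 in Mlesico, had a ratio of 0.99 (1.99-fold), just inside the threshold, on chromosome 11 where the median was -0.25. It stood 1.24 above that median, and its probe set was in the middle class. Nr1d2 was at 0.64 in its measured probe set and at 2.09 in a low-class one. Rora was at 0.98 over 8 measured probe sets, which ran from -0.50 to 1.496, and at 3.54 in a low-class one. Rorb had a ratio of -0.92 and its 3 probe sets, all in the middle class, ran from -1.10 to -0.69. With the median of chromosome 19 (0.27) subtracted, Rorb stood at -1.18, past 2-fold lower. Arntl was thus at -0.50 beside ratios of 0.99 and 0.64 for its repressors Nr1d1 and Nr1d2, and of 0.98 and -0.92 for 2 of its activators.

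The third PAR factor, Hlf, did not go with Dbp and Tef: it had the lowest ratio of the list, -0.96, and middle-class probe sets at -1.19 and -0.72. With the median of chromosome 11 subtracted, Hlf stood at -0.71. Nfil3, which competes with the PAR factors at D-boxes as a repressor, was at 0.21. Ciart, a repressor of the Arntl and Clock pair, was at 0.49. Arntl2 was at -0.66 in its measured probe set and at 3.20 in a low-class one, so the sign depended on which was used.

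Genes that act on clock proteins, such as kinases, ubiquitin ligases and cofactors, had 1 of 18 measured genes at least 2-fold higher and 1 lower, against 8.4% and 7.18% of all measured genes, and a median of -0.03. Prkaa2 encodes the alpha 2 catalytic subunit of the energy sensor AMPK, a kinase that marks Cry1 for degradation. It was at 3.77 (13.6-fold) with measured probe sets at 3.37 and 4.17 and a low-class one at 0.996. Both measured probe sets were placed by the step, so their true class may be lower, and only the low-class one was placed by the sum. With the class from the sum alone Prkaa2 therefore had no measured probe set. Usp2, a ubiquitin protease that acts on clock proteins and is itself rhythmic in many tissues, was at -1.70 (3.24-fold higher in Mlesico), with probe sets at -2.07 and -1.32. Both were in the middle class, the -2.07 from the step and the -1.32 from the sum. In those classes 27.1% and 20.4% of probe sets, in that order, were past 2-fold. The kinases that phosphorylate the period proteins stood at -0.41 for Csnk1d, with its 5 probe sets between -0.49 and -0.34, and at 0.60 for Csnk1e, whose 3 ran from -0.77 to 0.85. These signs match those of their chromosomes, 11 and 15, whose medians were -0.25 and 0.36. Csnk2b was not analysed here, and Fbxl21 had only a low-class probe set.

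Genes that carry signals to the clock had 2 of 11 measured genes at least 2-fold higher and none lower. This compares with 8.4% and 7.18% of all measured genes, and the list median was 0.13. The 2 higher genes were Klf10 at 1.35 in 1 probe set and Klf9, a glucocorticoid-responsive factor, at 1.29. All 7 probe sets of Klf9 lay between 0.32 and 1.64. With the chromosome median subtracted, Klf10 stood at 0.99 and Klf9 at 1.02. The glucocorticoid receptor gene Nr3c1 was at 0.13 and its target Tsc22d3 at 0.27, with 4 probe sets from 0.11 to 1.28. The lowest of the list was the CREB coactivator gene Crtc3 at -0.31. Hsf1 was not analysed here.

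Known targets of the clock or of its output factors had none of 10 measured genes past 2-fold in either direction, with a median of 0.09. Wee1, an E-box target that encodes a kinase holding cells before mitosis, was the highest at 0.72, with probe sets at 0.69 and 0.75. Pdxk, a PAR factor target that encodes pyridoxal kinase, was the lowest at -0.95, with probe sets between -0.99 and -0.22. Por was not analysed here, and Nr1i3 had only a low-class probe set. Counts of higher and lower genes in the 4 lists compare with the 8.4% and 7.18% of all measured genes given above.

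**Figure D4:**
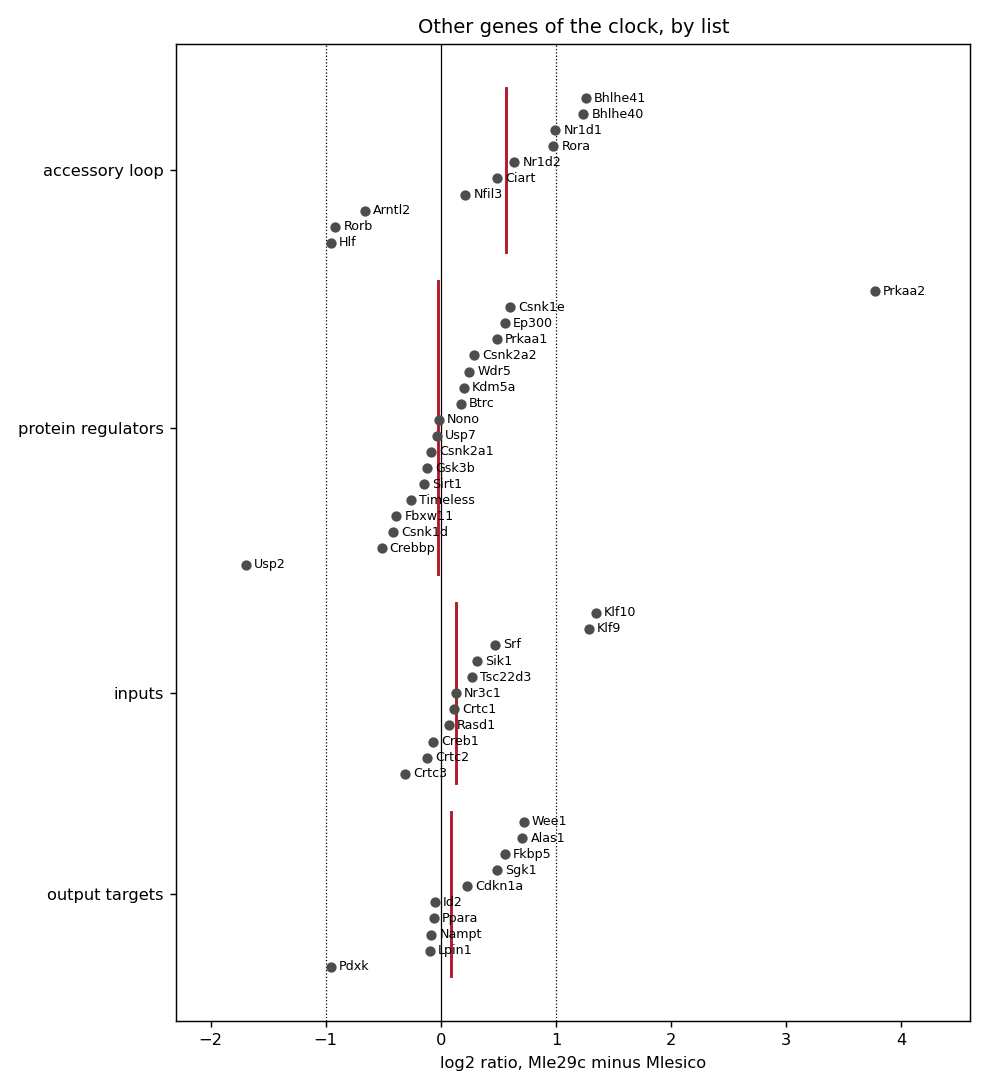
Each point is a measured gene of one of the 4 lists, with its log2 ratio (Mle29c minus Mlesico) on the x axis; red bars are list medians (0.56, -0.03, 0.13 and 0.09 from top to bottom). Prkaa2 at 3.77 and Usp2 at -1.70 lie furthest out, and the accessory loop spans -0.96 to 1.26.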

How the data were processed

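Total RNA of each line was labelled with biotin and hybridised to 1 Affymetrix array, per the labels' protocols. The authors summarised probes with MAS5 (version not stated), per the submitters' processing notes. What they deposited are log signals, taken here as log2. Each pair was centred on its midpoint, as the values show: both sum to 0 within 1e-06, and each column median is 0. The log base is not stated; with a natural log the folds and the signals at the class limits would be larger. The number of arrays limits the precision.

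Probe sets (45101, of which 64 are array controls) were named from the platform annotation of 2016: 34945 list 1 gene, 932 several and 9160 none. Symbols were updated through the GRCm38.p6 gene table, in which 34741 were found. Gene values were medians over probe sets of the high or middle class; 3351 genes without such a probe set were not used, except Npas2, for which all its probe sets were used. On simulated data the ratios were recovered, as were most classes from the sum; classes from the step were right less often. Genes were called by size alone, at 2-fold. Members and lists were chosen with earlier results of these data known. Named were all members, list genes past 2-fold, the highest and lowest of each list, and 7 preset genes (Nr1d1, Nr1d2, Bhlhe40, Nfil3, Wee1, Csnk1d and Csnk1e); the other genes named, such as Rora, Rorb, Ciart, Arntl2, Nr3c1, Tsc22d3 and the neighbours of Dbp, were chosen after their values were seen. Alternatives changed the probe sets, the gene value, the scaling and the threshold. Python 3.11.15 with pandas 2.3.3 was used.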

Additional observations from a re-analysis of the deposited data

How the results depend on the processing

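No paired analysis was possible because each line has 1 array. Of the 10 clock genes, Dbp lay between 1.65 and 1.68 and Cry1 between 1.15 and 1.17 in the settings that kept a probe set of theirs, Per2 between 0.43 and 0.91, Tef between 0.50 and 1.73 and Arntl between -0.70 and -0.31. Cry1 has 1 probe set and Dbp 2 close ones, so most settings could hardly move them. Their narrow ranges are no measure of stability beside genes with more probe sets. Subtraction of neighbours, which put Dbp at 1.11, was not among the settings. Clock (-0.69 to 0.02) and Per3 (-1.67 to 0.46) changed sign. The count of higher clock genes was 1 without shared probe set types and 1 with the level class from the sum alone (chosen after seeing the data), which by construction leave out Cry1 and Dbp in turn, 4 at 1.5-fold, 0 at 4-fold, 3 with the mean over probe sets, and 4 when the probe set furthest from 0 stood for each gene; 1 clock gene was then lower. The clock median, 0.31 over 10 genes with Npas2, was 0.65 with the furthest probe set and 0.55 when high-class probe sets alone were used.

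In the accessory loop, higher genes numbered 4 with every probe set, 1 with chromosome medians subtracted, 5 at 1.5-fold and 0 at 4-fold; lower genes numbered 2 with the furthest probe set, 1 (Rorb) with chromosome medians subtracted, 3 at 1.5-fold and 1 with the class from the sum; the median was 0.88 with every probe set and 0.78 with the class from the sum. Among protein regulators, higher genes numbered 2 with every probe set, 2 at 1.5-fold and 0 with the class from the sum; lower genes numbered 0 at 4-fold and 0 over high-class probe sets; the median was -0.22 with the furthest probe set. Inputs had 1 higher gene with chromosome medians subtracted and 0 at 4-fold, and medians of 0.63 with the furthest probe set and 0.43 with the class from the sum. Output targets had 2 higher and 1 lower gene at 1.5-fold, 1 lower with every probe set, and a median of 0.31 in the high class alone. At 1.5-fold 16.6% of all measured genes were higher and 15.1% lower, and at 4-fold 2.66% and 2.3%. The cause was not tested, except that other thresholds and fewer probe sets change counts by construction. Of 125 such counts and medians, 93 stayed the same or moved little: counts by at most 1.5 times (2 against 3 included), medians by less than the pooled SD between probe sets over the square root of the number of genes. Some of the 93 were fixed by construction, since a count of 0 at 2-fold must stay 0 at 4-fold. Signal over background is not known beyond the level class, and it limits Npas2 most.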
